A study of Arabidopsis thaliana with 6 samples.

Results

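Cruciferins and vicilin-like globulins are storage proteins of the Arabidopsis seed, and 7 genes of this kind were examined: CRA1 (AT5G44120), CRU2 (AT1G03880), AT1G03890, PAP85 (AT3G22640), AT2G28490, AT2G18540 and AT4G36700. They were chosen by name and probe set from 15069 genes that the deposited tables and annotations pair with probe sets of the array. The rule uses no measured value, but the choice was made with earlier results of these data known. Each gene is read by 1 probe set. The deposited annotation calls CRA1 and CRU2 12S seed storage proteins and the other 5 cupin family proteins.

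Both classes are cupin proteins, built on a barrel-shaped fold that occurs as a pair of domains in each chain. Cruciferins are the legumin-type globulins of Brassicaceae and vicilin-like proteins are their relatives. They are made on the endoplasmic reticulum of the maturing embryo, sorted to protein storage vacuoles, cleaved there by vacuolar processing enzymes, and broken down by proteases when the seedling needs nitrogen and carbon. Their genes are switched on during maturation by B3-domain factors such as ABI3 and FUS3 together with bZIP factors, and dry seeds still carry much of the transcript.

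Total RNA of Arabidopsis thaliana seeds, ecotype Columbia-0, was hybridised to 6 Affymetrix arrays, of which 3 held wild-type seeds and 3 held seeds of a mads-box mutant, agl67. AGL67 (AGAMOUS-LIKE 67) belongs to the MADS-box family of DNA-binding regulators. Seeds of both genotypes lay in water at 4 °C in darkness for 3 days, which breaks dormancy. They were then given 5 µM abscisic acid (ABA), a hormone that restrains germination, during 3 hours of light at 22 °C. No sample without ABA or at another time was analysed here, and the mutant allele is not given in the sources used here. Whole seeds were extracted, so fewer cells of a type and less RNA per cell cannot be told apart. The labels call the samples biological replicates without saying whether they came from separate plants.

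Values are log2 expression per probe set and array, and changes are mutant minus wild type on that scale. Calls come from limma fitted across 22746 probe sets, with p-values adjusted by the Benjamini-Hochberg method and a threshold of 0.05. AGL67 itself read 8.79, 8.25 and 8.78 in wild type and 4.15, 4.30 and 3.66 in the mutant, and fell by 4.57 on the log2 scale (SE 0.21, limma adjusted p = 0.000887). The third wild-type array stood apart: its median was 3.80, against 3.97 to 4.00 on the other arrays, and its correlations across probe sets with the first and second wild-type arrays were 0.980 and 0.983, while those 2 arrays reached 0.994 with each other. Results that rest on it are given with and without it. As a check of the tissue, the embryo transcripts EM1 and EM6 read 12.17 to 12.63 and 13.92 to 14.00 over the 6 arrays, and the oleosin gene OLEO3 read 8.74 to 9.20. These were the 3 of 7 listed seed markers that could be paired with a probe set, and none of the 3 passed in limma or had an unadjusted p under 0.05. Of 6 listed markers of green seedlings only GAPA could be paired, and it read 2.96 to 3.21 in wild type and 3.38 to 3.62 in the mutant. Of 3 listed endosperm markers only the expansin gene EXPA2 could be paired, and it read 3.47 to 4.25 and 4.31 to 4.92. Both were higher on every mutant array, as were 14.9% of all probe sets, but did not pass in limma (adjusted p = 0.144 and 0.127). GAPA read low: on each array between 20.4% and 43.7% of probe sets read lower than it did. The part of these 2 genes in the results was not tested.

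The comparison asks which transcripts the loss of AGL67 alters in ABA-treated seeds. Mutant seeds held less transcript of CRU2 and of the cruciferin-like gene AT1G03890 and more of the vicilin-like gene AT4G36700. CRU2 read 1.56-fold and AT1G03890 1.66-fold lower in the mutant, and AT4G36700 read 1.43-fold higher. The remaining 4 genes, CRA1, PAP85, AT2G28490 and AT2G18540, did not pass the threshold. Of all probe sets 0.778% passed as lower and 1.93% as higher, or 2.70% in all, against 2 lower and 1 higher of these 7 genes. The 3 calls lie near the threshold: of the 6 fits that leave out 1 array, all 3 genes passed in the fit without the third wild-type array, where 6.73% of all probe sets passed, and 1 or 0 passed in the others. With replicate number added to the fit as a block, 0 of the 7 genes passed.

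**Figure D1:**
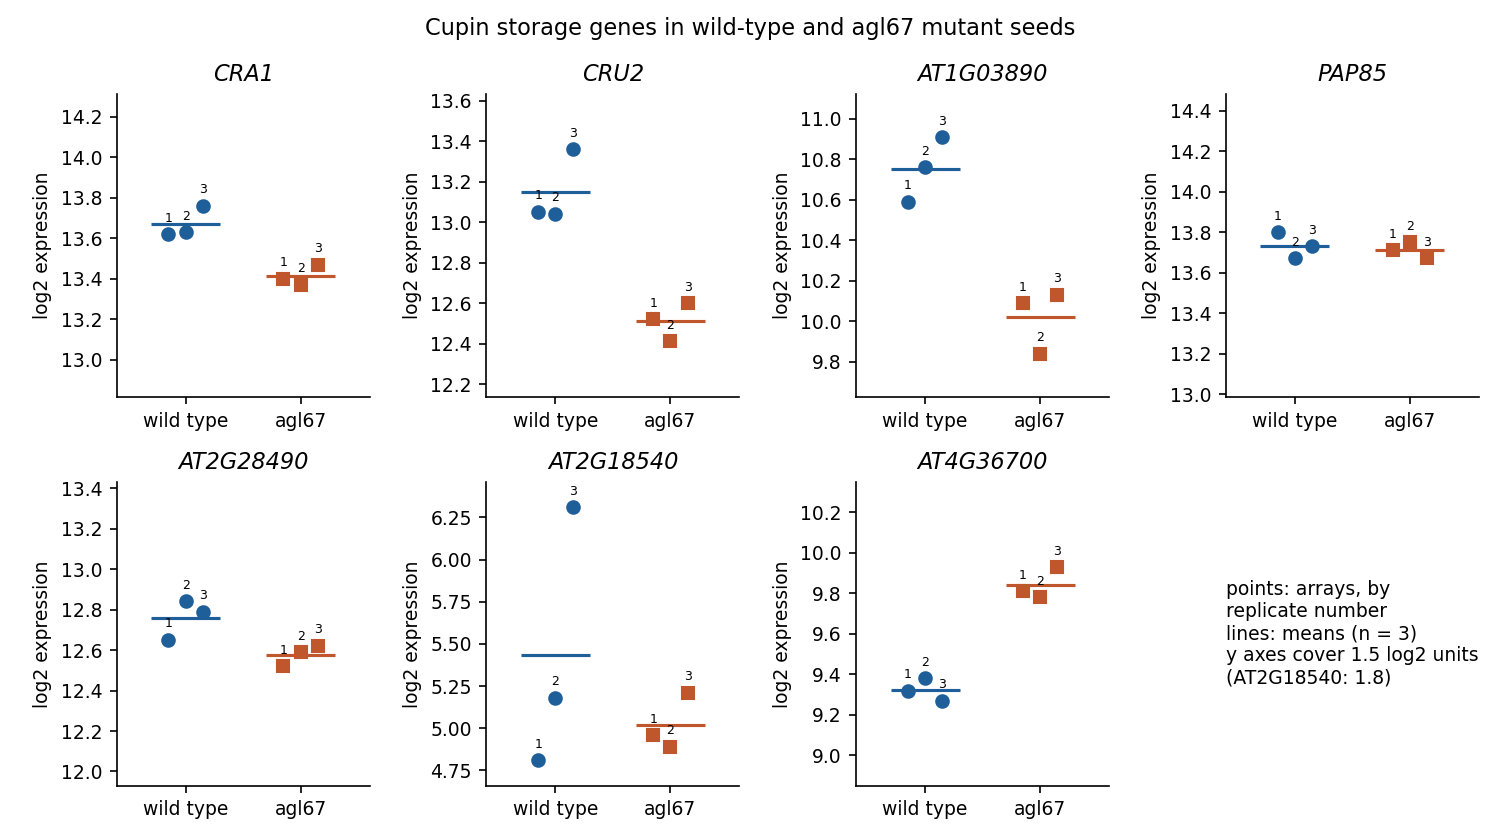
Log2 expression (y axis) of the 7 cupin storage genes on the 3 wild-type arrays (circles) and the 3 agl67 arrays (squares), numbered by replicate, with horizontal lines at the group means. CRU2 and AT1G03890 lie lower on every mutant array than on any wild-type array and AT4G36700 higher, while the groups overlap for PAP85 and AT2G18540.

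Among the legumin-type genes, CRU2 encodes cruciferin B, one of the abundant globulins of the seed. Its log2 level was 13.05, 13.04 and 13.36 on the wild-type arrays and 12.52, 12.41 and 12.60 on the mutant arrays. The groups lay 0.44 apart at their nearest arrays, and the third wild-type array held the highest reading. Its mean was 13.15 ± 0.18 in wild type and 12.51 ± 0.09 in the mutant (SD, n = 3), and CRU2 fell, with a log2 change of -0.64 (SE 0.12, limma adjusted p = 0.0432). With the third wild-type array left out the log2 change was -0.54 (limma adjusted p = 0.0179), and in the 5 other fits that leave out 1 array CRU2 did not pass (log2 changes from -0.70 to -0.59, limma adjusted p from 0.0572 to 0.206).

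AT1G03890, the legumin-type gene next to CRU2, read 10.59, 10.76 and 10.91 in wild type and 10.09, 9.84 and 10.13 in the mutant. Every mutant array lay below every wild-type array, with a gap of 0.45. Its mean was 10.75 ± 0.16 in wild type and 10.02 ± 0.16 in the mutant (SD, n = 3), and it fell, with a log2 change of -0.73 (SE 0.13, limma adjusted p = 0.0333). It passed without the first wild-type array (-0.82, limma adjusted p = 0.0368) and without the third (-0.65, 0.0162), and with none of the other arrays left out (0.101 to 0.162).

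CRA1 encodes cruciferin A. It read 13.62, 13.63 and 13.76 in wild type and 13.40, 13.37 and 13.47 in the mutant, so the groups did not overlap but stood only 0.15 apart. The log2 change was -0.26 (95% interval -0.48 to -0.03, limma adjusted p = 0.245) and did not pass. It passed with an intensity trend in the estimate of spread (limma adjusted p = 0.0279). Another probe set is titled a putative 12S seed storage protein or cruciferin and is paired with no gene here; it was singled out after its values were seen. It read 13.87, 13.91 and 13.76 in wild type and 13.61, 13.50 and 13.59 in the mutant, a log2 change of -0.28 (SE 0.10, limma adjusted p = 0.209) that did not pass. With the intensity trend it passed as well (limma adjusted p = 0.0196).

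CRU2 and CRA1 could be set against each other within each array, where scaling of the whole array cancels. CRU2 minus CRA1 was -0.57, -0.59 and -0.40 in wild type and -0.88, -0.95 and -0.87 in the mutant. The difference was thus lower on every mutant array, by 0.38 on average (exact permutation test, two-sided, p = 0.1, and no lower value is possible with 3 arrays per genotype). CRU2 minus AT1G03890 was 2.40 ± 0.10 in wild type and 2.49 ± 0.07 in the mutant (SD, n = 3), with overlapping groups (exact permutation test, two-sided, p = 0.4). These are differences between readings of different probe sets, so they give no ratio of transcript levels. They were among 3 pairs computed, chosen after the changes were known, and no p could pass in this design, so the values are a description. CRA1 and PAP85 read within 0.65 of the highest reading on each array.

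Of the vicilin-like genes, AT4G36700 rose, while CRU2 and AT1G03890 fell. It read 9.32, 9.38 and 9.27 in wild type and 9.81, 9.78 and 9.93 in the mutant, with a gap of 0.40 between the groups. Its mean was 9.32 ± 0.05 in wild type and 9.84 ± 0.08 in the mutant (SD, n = 3), and it rose, with a log2 change of 0.51 (SE 0.10, limma adjusted p = 0.0405). When each array was centred on its median the change was 0.45 and did not pass (limma adjusted p = 0.0542). It passed without the third wild-type array (0.49, limma adjusted p = 0.0240) and with none of the other arrays left out (0.47 to 0.54, limma adjusted p from 0.0719 to 0.201).

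PAP85, a vicilin-like globulin gene, read 13.80, 13.67 and 13.73 in wild type and 13.71, 13.75 and 13.67 in the mutant. The groups overlapped and the log2 change was -0.02, with a 95% interval from -0.24 to 0.20 (limma adjusted p = 0.939). AT4G36700 minus PAP85, the third pair, was -4.41 ± 0.11 in wild type and -3.87 ± 0.12 in the mutant (SD, n = 3), without overlap (exact permutation test, two-sided, p = 0.1).

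AT2G28490, another gene of the vicilin-like class, read 12.65, 12.84 and 12.79 in wild type and 12.52, 12.59 and 12.62 in the mutant. The groups were 0.03 apart at their nearest arrays. The log2 change of -0.19 (95% interval -0.42 to 0.04, limma adjusted p = 0.405) did not pass.

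AT2G18540 differed from the other 6 genes in its spread. It read 4.81, 5.18 and 6.31 in wild type and 4.96, 4.89 and 5.21 in the mutant, so the third wild-type array alone stood high and the groups overlapped. Its log2 change was -0.41 (SE 0.35, limma adjusted p = 0.612), and 0.02 without the third wild-type array. On each array between 58.7% and 76.0% of probe sets read lower than it did, so its readings did not rank with those of abundant seed transcripts. Whether they lie above background was not tested.

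For 4 of the genes the readings lay near the top of the scale, which ended at 13.96 to 14.20 on the 6 arrays. PAP85 ranked between 4 and 8 from the top on its array, CRA1 between 5 and 14, AT2G28490 between 37 and 61 and CRU2 between 13 and 66. AT1G03890 ranked between 285 and 716 and AT4G36700 between 662 and 1118. Whether probes this bright were saturated was not tested, since the deposited values hold no flags for it. Of the 100 probe sets with a mean above 12, which include these 4 genes, 3.00% passed the threshold, CRU2 among them, and their median log2 change was 0.02.

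**Figure D2:**
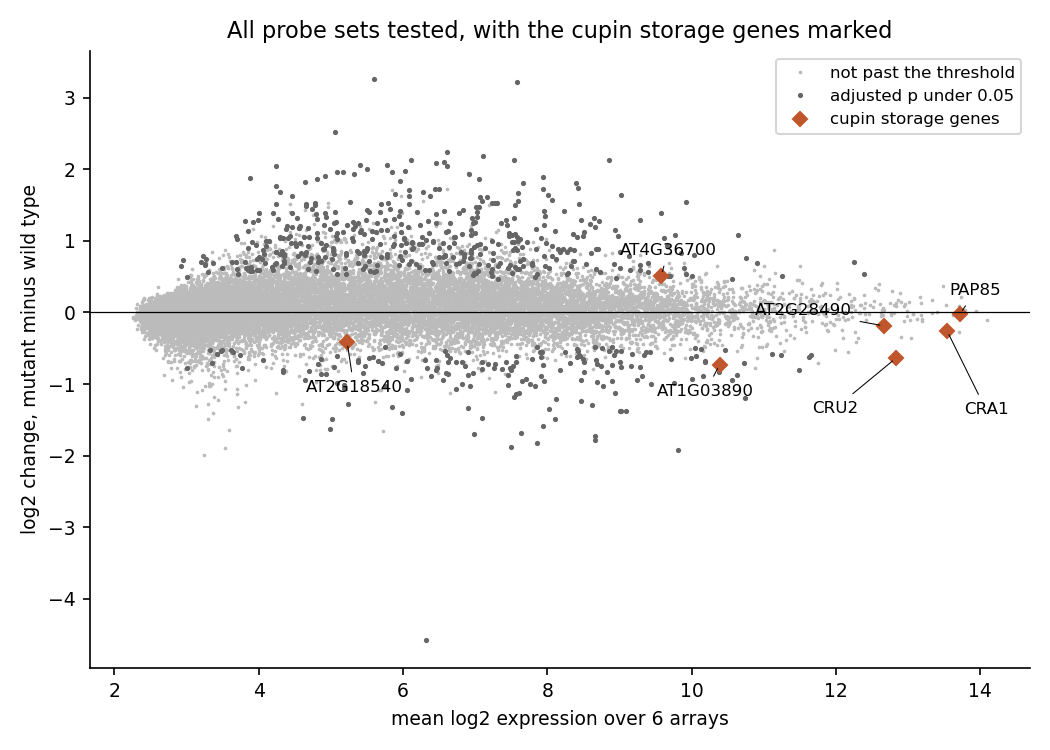
Log2 change, mutant minus wild type (y axis), against the mean log2 expression over the 6 arrays (x axis) for 22746 probe sets, dark where the adjusted p was under 0.05, with the 7 cupin storage genes as diamonds. CRU2, with a change of -0.64, lies below the other bright genes, PAP85 lies at -0.02, and the point near -4.57 is AGL67.

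Across the 7 genes 6 changes were below 0, as were 45.1% of those of all probe sets, and their median was -0.26, against 0.02 for the whole array. With the third wild-type array left out 5 of the 7 changes and 53.4% of all were below 0, and the medians were -0.17 and -0.01. Mutant and wild-type arrays did not overlap for 5 of the genes, 4 lower and 1 higher. Of all probe sets 24.0% did not overlap, made up of 9.16% with the mutant lower and 14.9% with the mutant higher, and of those with a mean above 12 the share was 39.0%. The authors' deposited table puts 2.25% of probe sets under a false discovery rate of 0.05, among them CRU2 at 0.0312, AT1G03890 at 0.0372 and AT4G36700 at 0.0389. The log2 ratios of the authors' deposited table for these were -0.67, -0.74 and 0.53, and the other 4 genes were not under that rate in it.

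**Figure D3:**
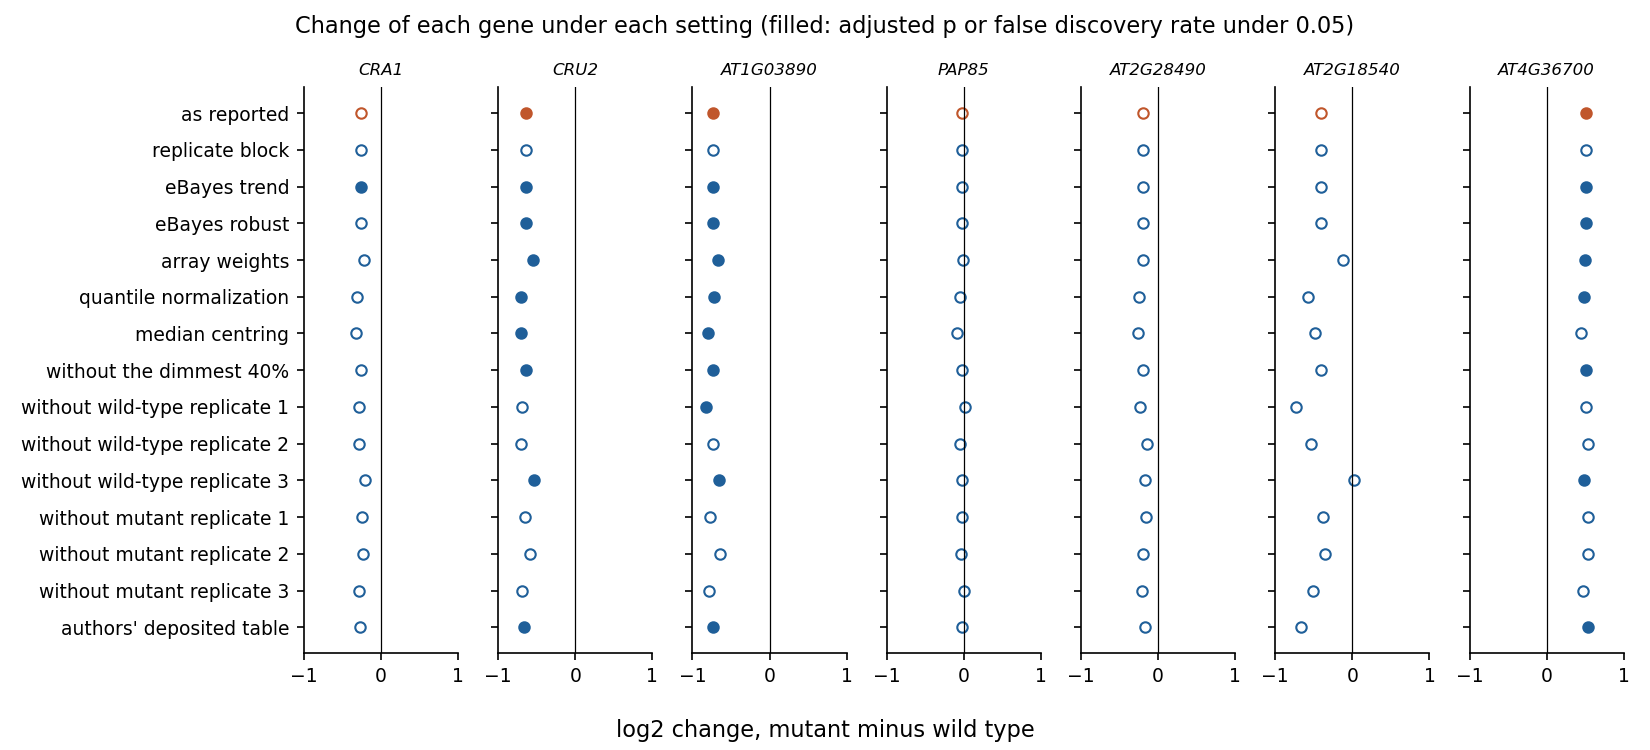
Log2 change of each of the 7 genes, mutant minus wild type (x axes), as reported and under each other setting (rows), filled where the adjusted p (for the authors' deposited table, its false discovery rate) was under 0.05. The changes of CRU2, AT1G03890 and AT4G36700 keep their sign in every row while their calls come and go, and AT2G18540 moves from -0.41 to 0.02 without the third wild-type array.

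CRU2 and AT1G03890 are immediate neighbours in the gene order of the RefSeq annotation (assembly TAIR10.1), and both fell. On the other side of CRU2 lies FLA9, a gene for a fasciclin-like arabinogalactan protein, whose log2 change was 0.07 (SE 0.10, limma adjusted p = 0.769). AT1G03910, the third gene beyond AT1G03890, had a log2 change of -0.07 (limma adjusted p = 0.780). Near AT4G36700 the gene GBF1, which encodes a bZIP factor that binds G-box sequences, lies 3 genes away and rose by 0.55 (SE 0.11, limma adjusted p = 0.0458). This call lies near the threshold, and its values in the fits that leave out 1 array are not given here. GBF1 was the only 1 of 16 measured genes within 3 places of a member, other than members, that passed, where 2.70% of all probe sets did. The log2 changes of the 16 ran from -0.30 to 0.55. These neighbours were examined after the members' values were known.

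The 2S albumins are small storage proteins of another fold, and 1 of the 4 measured, SESA4, fell. It read 10.67, 10.64 and 10.98 in wild type and 9.16, 8.23 and 9.16 in the mutant, a log2 change of -1.91 (SE 0.26, limma adjusted p = 0.0130). It did not pass in 3 of the 6 fits that leave out 1 array. SESA1, SESA2 and SESA3 had log2 changes of -0.48, -0.45 and -0.19 and did not pass. The cupin genes AT1G07750 and AT2G28680 had changes of -0.20 and 0.22 and did not pass either. In all, of 6 other storage or cupin genes measured out of 8 listed, 1 fell, 0 rose and 5 did not pass, with a median log2 change of -0.32, where 0.778% of all probe sets fell and 1.93% rose.

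**Figure D4:**
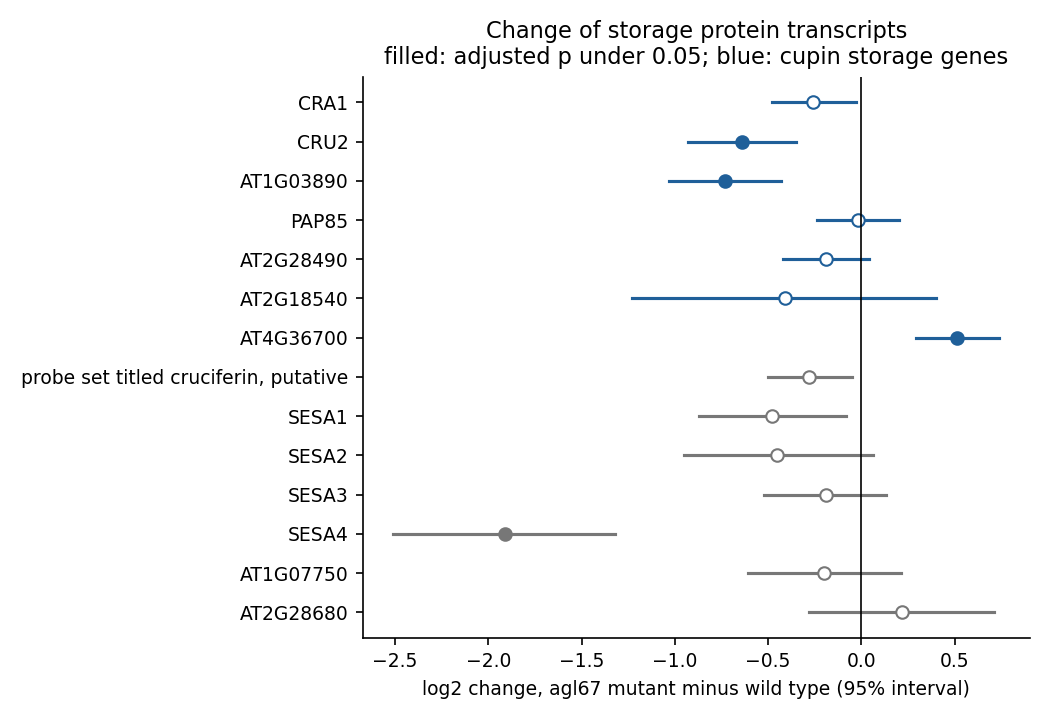
Log2 change, mutant minus wild type (x axis), with 95% intervals, for the 7 cupin storage genes (blue) and for the other storage or cupin probe sets (grey), filled where the limma adjusted p was under 0.05. SESA4 at -1.91 lies farthest from 0, and AT4G36700 at 0.51 is the only filled point above 0.

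Of 28 listed regulators of storage genes, 17 were measured, of which 2 rose, 0 fell and 15 did not pass, with a median log2 change of -0.03. Over all probe sets, 1.93% rose and 0.778% fell, with a median of 0.02. The bZIP gene EEL and the AP2-domain gene ABI4, both linked to ABA responses of the seed, rose by 1.00 and 0.95 (limma adjusted p = 0.0226 and 0.0284). Of the 6 fits that leave out 1 array EEL passed in 1 and ABI4 in 2, and in the authors' deposited table EEL was at a false discovery rate of 0.0564. ABI3, a B3-domain activator of cruciferin genes, read 8.70, 8.98 and 9.08 in wild type and 8.35, 8.61 and 8.71 in the mutant, with a log2 change of -0.36 (limma adjusted p = 0.272). BZIP53, a partner of such B3 factors, had a change of -0.15. FUS3, LEC1 and LEC2, which act earlier in seed development, read between 3.00 and 4.13 on all arrays and did not pass.

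Of 41 listed genes for folding, sorting and cleavage of storage proteins, 16 were measured and 0 passed in limma, while 1 had an unadjusted p under 0.05 and 0 were under a false discovery rate of 0.05 by the authors' deposited table. Among all probe sets the shares were 2.70% in limma and 2.25% by that table's rate. BETAVPE, the vacuolar processing enzyme of seeds, had a log2 change of -0.15, and GAMMAVPE, the vegetative form, 0.15. The aspartic proteinase PASPA1 had a change of -0.17 and the tonoplast channel TIP3-1 of the storage vacuole 0.09. The smallest p-values belonged to the chaperone gene SHD, with 0.93 (limma adjusted p = 0.107), and to BIP3, with -0.28 (0.322). In the authors' deposited table their false discovery rates were 0.0728 and 0.261. BIP3 read only 2.47 to 3.06 over the 6 arrays, where between 1.7% and 22.5% of probe sets read lower. SHD passed in 1 of the 6 fits that leave out 1 array, that without the second wild-type array (1.22, limma adjusted p = 0.0254). Without the third wild-type array its change was 0.70 (limma adjusted p = 0.0576). The list median was 0.12.

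Among these lists the smallest adjusted p-values belonged to 2 genes for proteases of the kind that degrade vacuolar proteins. Of 15 listed, 12 were measured, of which 2 rose, 0 fell and 10 did not pass, with a median log2 change of 0.15, beside the same 1.93% higher and 0.778% lower over all probe sets. AT3G45310, which encodes an aleurain-like cysteine protease, read 6.91, 6.79 and 6.58 in wild type and 8.49, 8.57 and 8.64 in the mutant. It rose by 1.81 (SE 0.12, limma adjusted p = 0.00169), 3.50-fold, with the groups 1.58 apart. AT4G01610, a cathepsin B gene, read 7.86, 7.56 and 7.63 in wild type and 9.11, 9.31 and 9.18 in the mutant and rose by 1.52 (SE 0.12, limma adjusted p = 0.00328). Both passed in all 6 fits that leave out 1 array. A further cathepsin B gene, AT1G02305, had a log2 change of 0.50 and an adjusted p in limma of 0.0559, and the drought-induced protease genes RD19 and RD21A had changes of 0.32 each, which did not pass. The groups overlapped for RD21A. Another cathepsin B gene, AT1G02300, had a change of 0.02. Of the 12 changes 9 were above 0, and those below it were AALP (-0.10), XCP1 (-0.07) and XCP2 (-0.22).

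By the pattern over the 6 arrays, the probe set most like CRU2 among 15245 that name 1 other gene was that of AT1G62460 (Pearson r = 0.996), which was also the most like CRA1 (0.992). AT1G03890 was nearest to AT3G04000, a short-chain dehydrogenase gene (0.997), AT4G36700 to AT1G15330, a CBS-domain gene (0.994), and PAP85 to AT3G11930 (0.984). AT2G28490 was nearest to AT3G60310 (0.995) and AT2G18540 to the protein kinase gene AT1G55200 (0.999). The second nearest were AT4G19830 for CRA1 (0.992) and AT1G03890 (0.996), AT5G34920 for CRU2 (0.991), AT2G25910 for AT4G36700 (0.993), AT1G71210 for PAP85 (0.974), AT4G28300 for AT2G28490 (0.992) and AT4G05270 for AT2G18540 (0.997). These arrays fall into 2 genotypes and share their scaling, so likeness over 6 points is a description: 103 probe sets exceeded r = 0.95 for CRU2, 259 for AT2G18540, 200 for AT4G36700 and 6 for PAP85. Of these nearest genes AT1G15330 alone passed, with a rise of 0.76 (limma adjusted p = 0.0126), which it did in 3 of the 6 fits that leave out 1 array. Over all probe sets 2.70% passed. AT1G15330 was picked by its likeness to AT4G36700, which itself passed as higher, so its call is no separate result.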

How the data were processed

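Total RNA from 3 wild-type and 3 agl67 mutant seed samples was measured on Affymetrix arrays. Per the submitters' processing notes, RMA and limma were used, with no version given. Deposited expression is on the log2 scale, with a value for every probe set on every array, and was analysed without further scaling. A second deposited table gives the authors' own comparison as log2 ratios, p-values and false discovery rates, per the file headers. It served as an alternative, and its 6 columns of values per array were not used. Its ratios correlated at 0.982 with mutant minus wild type across probe sets. Genome build and probe sequences are not given in the sources used here.

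Of 22810 probe sets 64 controls were left out. Gene names came first from the platform's annotation (13513 probe sets). Symbols and titles of the authors' table, looked up in the RefSeq gene table (assembly TAIR10.1), named 1739 more, each kept only if at least 1 of its 10 nearest neighbours by probe set number lay on its chromosome. In all 15252 name 1 gene, 503 several and 6991 none. Where a gene had several, that with the highest mean was used.

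Genotype was the only term in limma 3.58.1 (R 4.3.3, lmFit and eBayes with default settings), with Benjamini-Hochberg adjustment over 22746 probe sets. The code was tested on simulated data. Single values were tested by exact permutation (scipy 1.17.1). The number of arrays limits the precision, and the limma p-values set the difference between genotypes against the spread between these samples. The members and gene lists were chosen with earlier results of these data known. Named genes are the 7 members, AGL67, up to 4 genes past the threshold of each list or else the 2 with the smallest p-values. The 2 probe sets most like each member, other members left out, are named too. ABI3, BZIP53, FUS3, LEC1, LEC2, EM6, the other SESA and cupin genes, BETAVPE, GAMMAVPE, PASPA1, TIP3-1, AT1G02305, AT1G02300, RD19, RD21A, AALP, XCP1, XCP2 and the neighbouring genes fall outside this rule and were named after their values were seen.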

Additional observations from a re-analysis of the deposited data

How the results depend on the processing

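Results were recomputed with a replicate block, with eBayes run with a trend or robustly, with array weights, after quantile normalization, after centring on medians, without the dimmest 40% of probe sets, from the authors' deposited table, and without each array. Some dim genes had no value without the dimmest probe sets. With the replicate block the count of the 7 genes past the threshold was 0, as CRU2 (-0.64, limma adjusted p = 0.0604), AT1G03890 (-0.73, 0.0569) and AT4G36700 (0.51, 0.107) missed it. Of the other named genes past the threshold in the lists, ABI4 (0.95, 0.0532) missed it with the block. Same-numbered arrays deviated from their group means with correlations of -0.16, 0.14 and 0.22, and not every array correlated best with its own number. The labels do not say whether the numbers pair the samples, and correlations among so few arrays cannot decide it. Centring took AT4G36700 to 0.45 (0.0542) and the trend brought CRA1 (-0.26) past the threshold. Leaving out 1 array gave 0 to 3 of the 7 genes past it. The range of log2 changes was -0.70 to -0.54 for CRU2, -0.82 to -0.64 for AT1G03890, 0.47 to 0.54 for AT4G36700, -0.29 to -0.21 for CRA1, -0.24 to -0.15 for AT2G28490, -0.05 to 0.01 for PAP85 (0.01 without the first wild-type array) and -0.73 to 0.02 for AT2G18540 (0.02 without the third). AGL67 passed in all 6 fits. Among genes that did not pass, OLEO3 (-0.04) ranged from -0.19 to 0.04 and was 0.08 with array weights, AT3G11930 (-0.03) ranged from -0.09 to 0.03, AT1G71210 (-0.13) from -0.30 to 0.06 and AT1G55200 (-0.23) from -0.42 to 0.02. Over all probe sets 615 passed, 438 higher and 177 lower, against 1490, 956 and 534 with array weights, 1042 and 449 lower after quantile normalization, 340 lower after centring, 110 lower with the block, and 86 to 1530, 68 to 877 and 18 to 653 without 1 array. Higher calls made up 71.2% as reported, 62.2% after centring and 56.9% after quantile normalization. The cause of these differences was not tested. The low counts came without a mutant array (86 to 117) and without the second wild-type array (227), and the high count without the third.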

Other observations

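Beyond the storage globulins, 29 other probe sets carry deposited titles of cupin family or germin-like proteins, the latter mostly cell wall proteins of the same fold. In limma 0 of them passed, 4 had an unadjusted p under 0.05, and 0 had a false discovery rate under 0.05 in the authors' deposited table. Over all probe sets 2.70% passed in limma and 2.25% were under that rate. Their log2 changes ran from -0.48 to 0.69 with a median of -0.06. Mutant and wild-type arrays did not overlap for 5 of the 29, against 24.0% of all probe sets. Their titles, not measured values, defined the set, which was drawn up after the members' values were known. Only 2 of the 29 had a mean reading above 7: AT1G07750, and a probe set titled germin-like and paired with no gene, which read 8.42 ± 0.20 in wild type and 8.20 ± 0.21 in the mutant (SD, n = 3).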
